A study of Homo sapiens with 12 samples.

Results

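The genes described here are the reduced folate carrier and 8 enzymes of folate-dependent one-carbon metabolism, 9 genes of 33990 with any count in these libraries, and all 9 were among the 15692 genes that passed the filter on low counts. The RNA came from a human colorectal cancer line without functional p53, HCT 116p53-/-, and from a subline derived from it that the labels name HCT 116p53-/-RPL3 KO and the study's methods describe as stably silenced for uL3, the ribosomal protein that RPL3 encodes. Cells of both received vehicle or actinomycin D (Act D) at 5 nM for 24 h, which gave 4 groups of 3 libraries, and every group carries the p53-/- genotype. The sources used here do not state whether the subline was 1 clone, and although the labels call the libraries of a group biological replicates they do not say that these came from separate cultures, so p-values measure the spread between these libraries. Act D is a DNA-intercalating drug with a preference for guanine-cytosine steps that at low dose blocks RNA polymerase I. The comparisons ask how each of these mRNAs responded to Act D, whether it responded alike in both lines, and how its level differed between the lines. SLC19A1 was chosen by the readout, as the largest fall with Act D in HCT 116p53-/-, so its values in that comparison, and in any that uses those libraries, are a description with no test. The other 8 genes were taken from the pathway. All 9 were chosen with earlier results of these data known, so no test here was blind to the data.

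Folates enter the cell as monoglutamates through the carrier encoded by SLC19A1, are lengthened with glutamates by folylpolyglutamate synthase (FPGS) so that they stay inside, and are shortened again by gamma-glutamyl hydrolase (GGH). Inside the cell they carry one-carbon units, most of which come from serine through the hydroxymethyltransferases SHMT1 in the cytosol and SHMT2 in the mitochondrion. MTHFD2 and MTHFD1L oxidise the mitochondrial unit and release it as formate, MTHFD1 reloads formate on folate in the cytosol, and the units are spent on purines, on methionine and, by thymidylate synthase (TYMS), on thymidylate. Methotrexate enters cells by the same carrier and 5-fluorouracil acts on TYMS, which is why these genes are much studied in colorectal cancer.

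The label of the subline was checked first. Library totals ran from 10087925 to 21138886 expected counts. Levels are given in CPM, the usual unit of counts normalised to library size, with library sizes scaled by TMM. RPL3 itself averaged 1138 and 1127 CPM in the vehicle and Act D groups of HCT 116p53-/-, against 1242 and 1223 CPM in the libraries labelled RPL3 KO, so the transcript that the label names was not lower there. Of 9 markers of colon epithelium, 3 or 4 averaged under 1 CPM in the groups of HCT 116p53-/- and 6 in those labelled RPL3 KO, where CDH1 stayed at or below 0.701 CPM and CDX2 at or below 0.343 CPM, while KRT8 was at 714 CPM or more and KRT18 at 576 CPM or more in all 12 libraries. The summed level of 6 fibroblast markers was 7.58 to 14.5 CPM in HCT 116p53-/- and 68.4 to 84.7 CPM in the other line, where COL3A1 (50.4 to 69.5 CPM) and LUM (7.71 to 13.3 CPM) made up most of it while COL1A1 was lower than in HCT 116p53-/- and COL1A2 and DCN stayed under 1 CPM in both. The sum of 5 leukocyte markers was at most 1.62 against at most 9.14 CPM, and that of 4 endothelial markers at most 1.69 against at most 2.09 CPM. The subline is therefore called the libraries labelled RPL3 KO throughout. What any difference between the lines owes to RPL3, and what to these other differences, cannot be told apart.

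SLC19A1, the reduced folate carrier (ENSG00000173638, hg38 chr21:45493572-45573365, minus strand), stood at 51.5, 57.6 and 62.8 CPM in the vehicle libraries of HCT 116p53-/- and at 9.09, 10.5 and 10.9 CPM with Act D. The groups did not overlap, and the mean went from 57.3 ± 5.67 to 10.2 ± 0.972 CPM (SD, n = 3), a log2 difference of -2.49. This is the value that selected the gene. In the fit used here it ranked 2 among the falls of genes past the threshold with a mean of at least 5 CPM and no overlap between the groups, after the non-coding MIR663AHG at -2.58 and before ARHGAP39 at -2.34. The rule that picked SLC19A1 did not use the libraries labelled RPL3 KO. There it was at 18.1, 15.6 and 14.9 CPM with vehicle and at 10.9, 8.68 and 10.9 CPM with Act D. Every Act D library lay below every vehicle library here too, and the mRNA fell 1.58-fold (log2 fold change -0.66, SE 0.13, edgeR quasi-likelihood test with Benjamini-Hochberg adjustment over all genes, adjusted p = 0.00313). The fall passed the threshold of 0.05 in all 14 alternative settings, between -0.76 and -0.58.

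The 4 levels of SLC19A1 thus had an order of HCT 116p53-/- with vehicle, the libraries labelled RPL3 KO with vehicle, and then both Act D groups together. With vehicle the libraries labelled RPL3 KO were lower by a log2 difference of -1.83, with no overlap. With Act D both groups averaged 10.2 CPM and their libraries overlapped, a log2 difference of 0.01, and of -0.23 with library size alone as the scale. The Act D difference was smaller in size in the libraries labelled RPL3 KO by 1.84 on the log2 scale. These last 3 values share libraries with the contrast that chose the gene and carry no test. CPM also takes no account of transcript length. The mean transcript length of SLC19A1, described below, had a median of 2634 bases with Act D in HCT 116p53-/- and 3748 bases in the other line. In bulk RNA fewer cells of a type and less RNA per cell cannot be told apart.

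**Figure D1:**
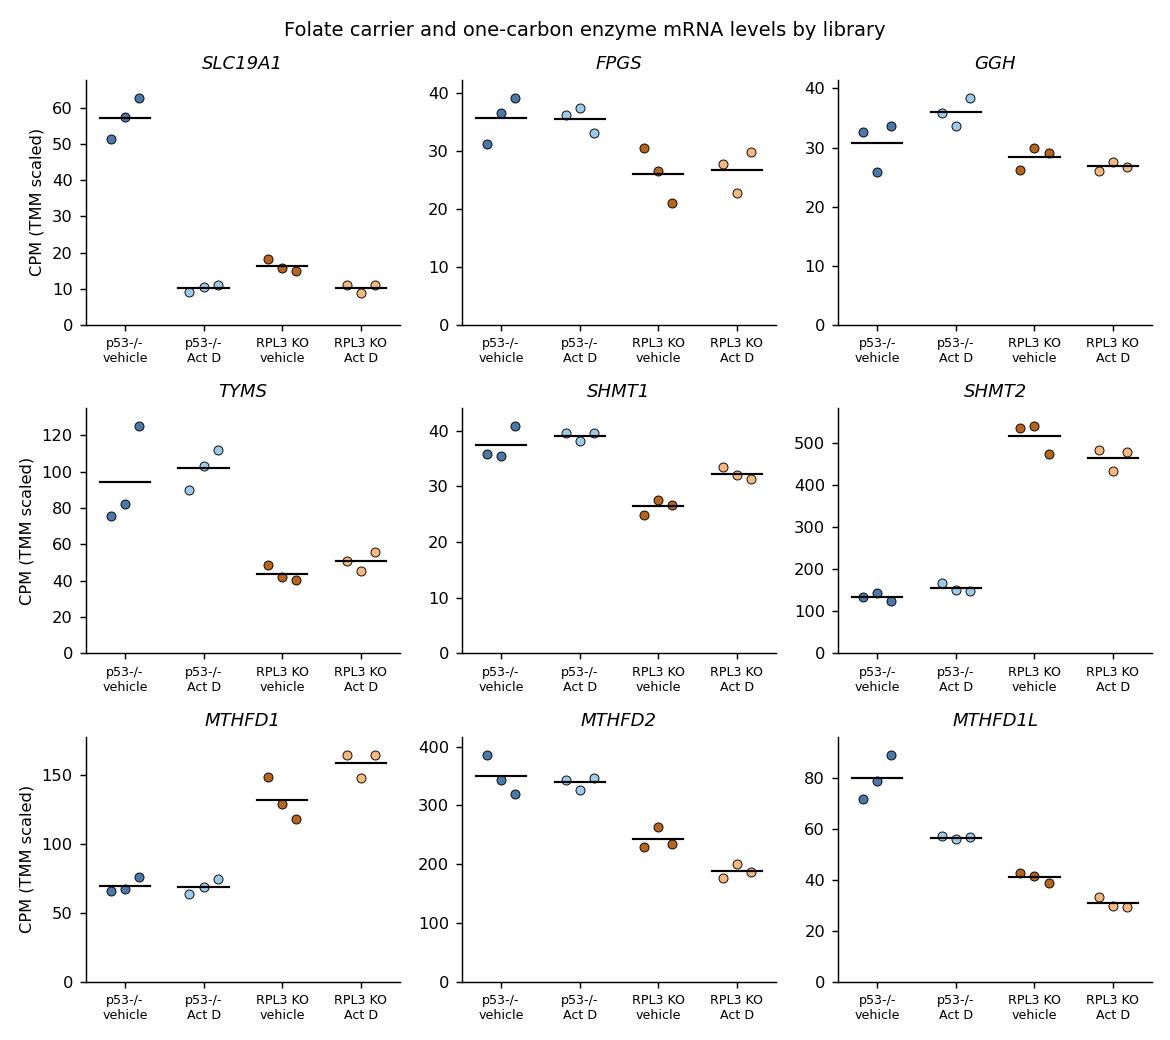
CPM (TMM scaled, each axis from 0) of the 9 genes in the 12 libraries, grouped by line and treatment, where a point is a library and a bar the mean of 3. SLC19A1 drops from 51.5 to 62.8 CPM to at most 10.9 CPM with Act D in HCT 116p53-/-, MTHFD1L is lower with Act D in both lines, and SHMT2 and MTHFD1 stand higher in the libraries labelled RPL3 KO while TYMS, MTHFD2 and MTHFD1L stand lower.

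RSEM, the program that assigned the reads, also gives each gene a mean transcript length, weighted by the share of each transcript in that library. For SLC19A1 it was 3989, 4281 and 4537 bases in the vehicle libraries of HCT 116p53-/- and 2423, 2634 and 2756 bases with Act D, so the groups did not overlap and the ratio of the medians was 0.615. A lower ratio was found in 1.1% of 15423 genes. Such non-overlap was found in 10.9% of all genes in this line, and SLC19A1 was the 1 gene of the 9 that showed it. In the libraries labelled RPL3 KO its lengths overlapped, at 2977 to 4005 bases with vehicle and 3454 to 3937 bases with Act D, and there MTHFD1L was the 1 gene of the 9 without overlap, at 1836 to 2121 and 1390 to 1747 bases, against 9.85% of all genes. The remaining genes kept overlapping lengths in both lines, and ratios of their medians ran from 0.908 to 1.09 with MTHFD1L included.

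One vehicle library of HCT 116p53-/- (replicate 2) was available per transcript. There ENST00000311124, of 4991 bases in 6 exons, made up 71.73% of SLC19A1, ENST00000485649, of 1896 bases, 14.14%, and ENST00000468508, of 1435 bases, 5.32%. The gene shares 1563 exon bases with COL18A1, a collagen gene on the opposite strand, of which 1156 lie in ENST00000311124 and 1197 in ENST00000468508. The TruSeq kit named in the labels does not mark strand, so strand was not expected to part the reads over the shared bases. The posterior SD, by which RSEM gives its own doubt in a count, was at most 0.0453% for SLC19A1. It was 0.00 reads in every Act D library and every library labelled RPL3 KO, where the counts were whole numbers. How RSEM assigned the reads over the shared bases was not tested. COL18A1 averaged 90.7 and 77.5 CPM with vehicle and Act D in HCT 116p53-/- and 96.8 and 79.7 CPM in the other line. Its part in the length shift of SLC19A1 was not tested.

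**Figure D2:**
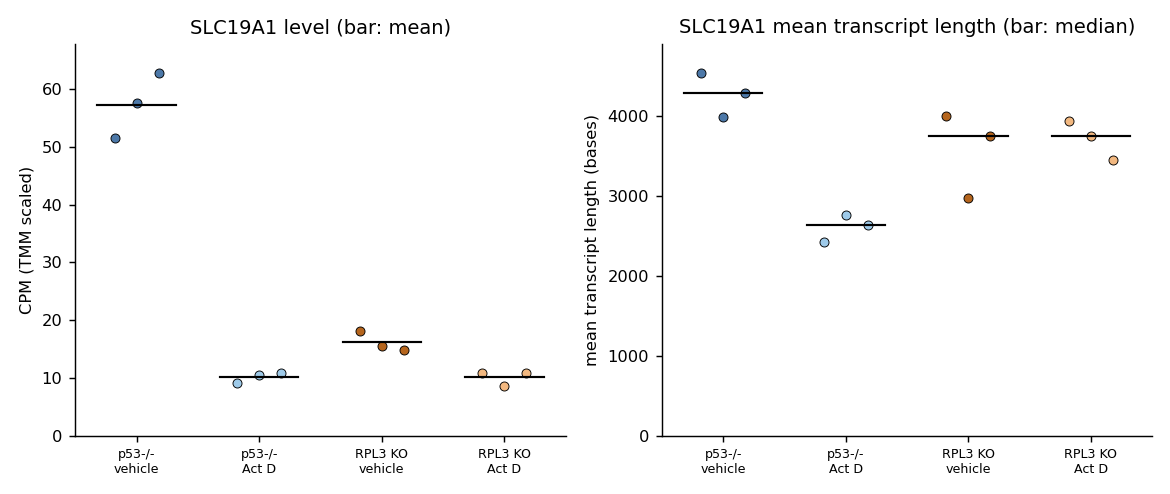
SLC19A1 in each of the 12 libraries, with its level in CPM (left, bars are means) and the mean length in bases of its transcripts as RSEM estimated it (right, bars are medians), both axes from 0. Level and length are both lower with Act D in HCT 116p53-/-, where lengths go from 3989 to 4537 bases down to 2423 to 2756 bases, while the lengths of the libraries labelled RPL3 KO overlap.

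A stretch of DNA upstream of 1 transcript of each of the 2 genes that were lower with Act D in both lines is shown because G+C content, which varied with the share of genes lower with Act D, was high in both. Each ends just before the first base of an annotated exon or of the most counted transcript in the library read per transcript (GENCODE v44, hg38), is written 5′ to 3′ on the strand of the gene, and has the GC box GGGCGG, on either strand, in capitals. Both stretches lie inside the annotated span of their gene, since other transcripts start farther out. The SLC19A1 stretch is chr21:45542472-45542690 (minus strand, 219 bases, 82.2% G+C) and the MTHFD1L stretch is chr6:150866083-150866332 (plus strand, 250 bases, 75.6% G+C).
SLC19A1: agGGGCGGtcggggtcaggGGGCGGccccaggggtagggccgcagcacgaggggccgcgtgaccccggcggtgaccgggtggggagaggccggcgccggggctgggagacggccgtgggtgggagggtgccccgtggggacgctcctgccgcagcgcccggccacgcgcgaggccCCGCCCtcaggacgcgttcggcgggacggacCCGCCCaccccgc
MTHFD1L: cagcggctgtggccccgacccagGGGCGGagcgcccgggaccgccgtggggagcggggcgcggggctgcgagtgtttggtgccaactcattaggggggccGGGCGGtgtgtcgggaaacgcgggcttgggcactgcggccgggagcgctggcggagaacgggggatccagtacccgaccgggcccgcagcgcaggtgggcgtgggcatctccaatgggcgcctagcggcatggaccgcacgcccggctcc

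Over the full 250 bases before its most counted transcript SLC19A1 held 82.8% G+C, and 97.8% of 15340 genes with such a sequence held less. GGH (76.4%) and MTHFD1L (75.6%) were also in the top quintile of genes, TYMS (71.2%), FPGS (70.4%) and SHMT1 (68.4%) in the fourth, MTHFD2 (62.4%) in the third, MTHFD1 (60.0%) in the second and SHMT2 (53.2%) in the first. Across all genes 18.4% of the top quintile were lower with Act D in HCT 116p53-/- against 8.15% of the bottom quintile, and 12.7% against 6.19% in the libraries labelled RPL3 KO. GGH, whose sequence was about as rich as that of MTHFD1L, had a log2 fold change of 0.23 in HCT 116p53-/-. The GC box occurred in 63.2% of all genes and in 6 of the 9, with 6 matches in FPGS, 4 each in SLC19A1 and GGH, 2 each in SHMT1 and MTHFD1L and 1 in SHMT2. The letters CCAAT occurred in 33.6% of genes and in 5 of the 9, the E-box CACGTG in 8.12% and in MTHFD1 alone, and the E2F motifs TTTCGCGC and TTTGGCGC in 0.724% and 0.782%, in none and 1 of the 9. These are matches of letters on both strands and say nothing of binding, and whether G+C content plays a part in the falls was not tested.

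**Figure D3:**
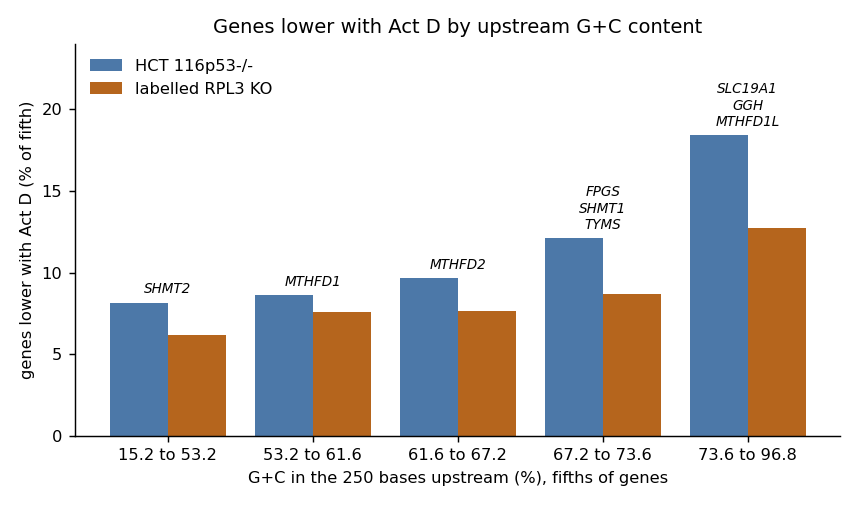
Share of genes lower with Act D (edgeR, adjusted p under 0.05) in each quintile of G+C content of the 250 bases upstream of the most counted transcript, in % of the 3068 genes of a quintile, for both lines, with the names of the 9 genes above the quintile they fall in. The share goes from 8.15 to 18.4% in HCT 116p53-/- and from 6.19 to 12.7% in the libraries labelled RPL3 KO, and SLC19A1, GGH and MTHFD1L are in the top quintile.

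The 5 genes whose log2 levels followed SLC19A1 most closely over the 12 libraries, among 11729 genes with a mean of at least 5 CPM in 1 group, were MLLT1 (Pearson r = 0.983), ITPRIPL2 (0.981), JRK (0.978), RPTOR (0.977) and PCDH7 (0.976). They were picked for that r, so a similar order of levels follows from the choice. MLLT1 was at 56.0 and 15.4 CPM with vehicle and Act D in HCT 116p53-/- and at 19.0 and 15.3 CPM in the other line. RPTOR, a subunit of the growth-regulating kinase complex mTORC1, went from 106 to 25.6 CPM and from 38.4 to 19.6 CPM. Within the pathway MTHFD1L was nearest at r = 0.76 and SHMT2 farthest at -0.50. The 12 libraries form 4 groups, so these r values mostly describe 4 group means and are given without a p.

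With Act D in HCT 116p53-/-, 1 of the other 8 genes was lower and none was higher by the edgeR test, where 11.1% of all genes were lower and 7.59% higher (1748 and 1191 genes, but 2309 and 551 with library size alone as the scale). On the higher side, the edgeR test gave an unadjusted p of 0.02 for SHMT2 and 0.0477 for GGH. DESeq2 called SHMT2 higher, where it called 1327 of all genes higher and 1739 lower. The median log2 fold change of the 8 was 0.03, against 0.02 for all genes. The gene that fell was MTHFD1L, the mitochondrial formyltetrahydrofolate synthetase that releases formate (ENSG00000120254, chr6:150865679-151101887, plus strand). It was at 71.6, 78.6 and 89.0 CPM with vehicle and at 57.1, 55.8 and 56.7 CPM with Act D, a 1.41-fold fall with no overlap (log2 fold change -0.50, SE 0.09, adjusted p = 0.000766). The same gene went, in the libraries labelled RPL3 KO, from 42.7, 41.6 and 38.6 CPM to 33.2, 29.8 and 29.3 CPM, a 1.33-fold fall with no overlap (log2 fold change -0.41, SE 0.10, adjusted p = 0.00941). Both falls passed the threshold in all 14 alternatives, and their difference was 0.09 on the log2 scale (SE 0.13, adjusted p = 0.752).

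Among the libraries labelled RPL3 KO, 3 of the 9 genes were lower with Act D and 1 was higher, where 8.4% of all genes were lower and 3.51% higher (1318 and 551 genes, 1012 and 944 with upper-quartile scaling and 1858 and 227 with library size alone). The median of the 9 was -0.09, against 0.03 for all genes. SLC19A1 and MTHFD1L are given above. MTHFD2, the mitochondrial methylenetetrahydrofolate dehydrogenase and cyclohydrolase (ENSG00000065911, chr2:74186172-74217565, plus strand), was at 230, 264 and 235 CPM with vehicle and at 177, 200 and 187 CPM with Act D. That is a 1.29-fold fall with no overlap (log2 fold change -0.37, SE 0.09, adjusted p = 0.00923), which missed the threshold without replicate 1 of the Act D libraries (-0.33, adjusted p = 0.0533). In HCT 116p53-/- MTHFD2 stood at 386, 344 and 319 CPM with vehicle and 344, 326 and 347 CPM with Act D, and the groups overlapped (log2 fold change -0.05, SE 0.09).

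SHMT1, the cytosolic serine hydroxymethyltransferase (ENSG00000176974, chr17:18327860-18363563, minus strand), was the gene that was higher with Act D in the libraries labelled RPL3 KO. It went from 24.9, 27.5 and 26.7 CPM to 33.5, 32 and 31.4 CPM, with no overlap (log2 fold change 0.29, SE 0.09, adjusted p = 0.0486). The call lay close to the threshold and held in 4 of 14 alternatives. Leaving out any 1 of the 6 libraries took it past 0.05, to an adjusted p between 0.0664 and 0.155. In HCT 116p53-/- the SHMT1 levels of 35.5 to 40.8 CPM with vehicle and 38.1 to 39.6 CPM with Act D overlapped. MTHFD1, the cytosolic enzyme with 3 activities that reloads formate (ENSG00000100714, chr14:64388031-64463457, plus strand), had a log2 fold change of 0.27 (SE 0.10, adjusted p = 0.0775) in the libraries labelled RPL3 KO, from 149, 129 and 118 CPM to 165, 148 and 165 CPM. Without replicate 1 of the vehicle libraries this was 0.36 with an adjusted p of 0.0213, and it also passed with DESeq2 (adjusted p = 0.0485) and with upper-quartile scaling (0.0291), 3 of 14 alternatives in all. In HCT 116p53-/- MTHFD1 was at 65.9 to 76.3 and 63.8 to 74.6 CPM.

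SHMT2, the mitochondrial serine hydroxymethyltransferase (ENSG00000182199, chr12:57229573-57234935, plus strand), was at 133, 143 and 124 CPM with vehicle and 168, 150 and 149 CPM with Act D in HCT 116p53-/-. The groups did not overlap but the difference missed the threshold (log2 fold change 0.22, SE 0.09, adjusted p = 0.0854), while it passed with DESeq2 (adjusted p = 0.0435). The sign was the other in the libraries labelled RPL3 KO, at -0.15 (SE 0.09, adjusted p = 0.29). TYMS, which makes thymidylate from deoxyuridylate (ENSG00000176890, chr18:657653-673578, plus strand), was at 75.4, 82.1 and 125 CPM with vehicle and at 90.0, 103 and 112 CPM with Act D in HCT 116p53-/-. Replicate 3 of the vehicle libraries stood above all others, and without it the log2 fold change went from 0.11 (adjusted p = 0.667) to 0.37 (adjusted p = 0.045). In the other line TYMS overlapped at 40.1 to 48.8 and 45.3 to 55.8 CPM. The TYMS exons share 967 bases with ENOSF1 on the opposite strand, which averaged 20.1 to 25.6 CPM in the 4 groups. The posterior SD of the TYMS count was at most 0.0215%, and how reads over the shared bases were assigned was not tested. Summed levels of 13 S phase markers, a process that TYMS serves, ran from 2039 to 2487 CPM over the 12 libraries and overlapped between all groups. Single markers moved both ways, 1 higher and 3 lower with Act D in HCT 116p53-/-, 2 lower in the libraries labelled RPL3 KO, and 4 higher and 7 lower in those libraries than in HCT 116p53-/- under either treatment.

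**Figure D4:**
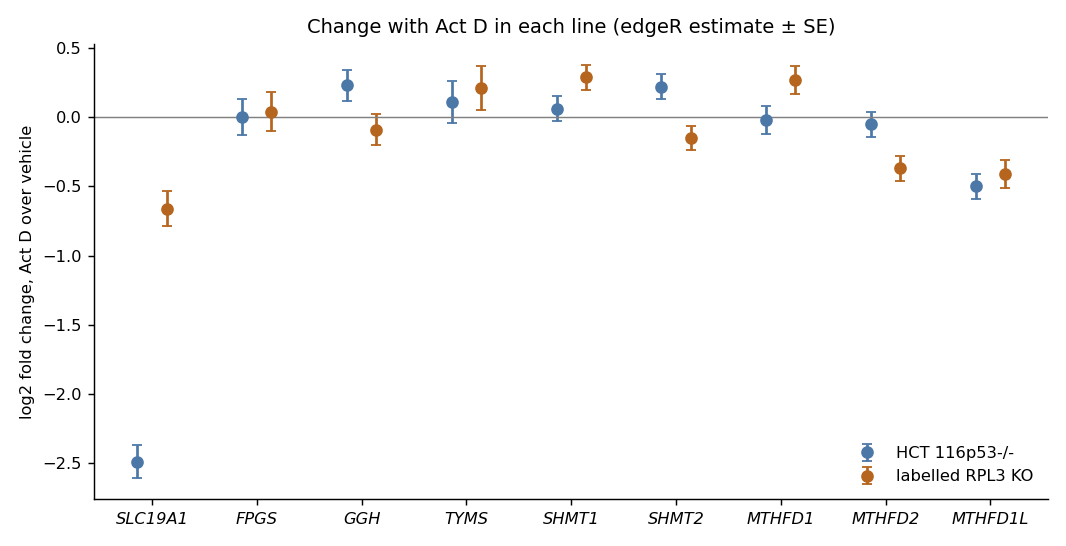
Log2 fold change of Act D over vehicle with its standard error (edgeR, 3 against 3 libraries) for the 9 genes in HCT 116p53-/- (blue) and in the libraries labelled RPL3 KO (brown). SLC19A1 lies at -2.49 and -0.66 and MTHFD1L at -0.50 and -0.41, while the other genes lie between -0.37 and 0.29.

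The enzymes that hold folate in the cell or let it go did not pass the test with Act D in either line. FPGS (ENSG00000136877, chr9:127794597-127814327, plus strand) was at 31.2, 36.6 and 39.2 CPM with vehicle and 36.2, 37.5 and 33.1 CPM with Act D in HCT 116p53-/-, a log2 difference with an interval of -0.26 to 0.25. For the libraries labelled RPL3 KO it was at 30.6, 26.5 and 21.1 and at 27.7, 22.8 and 29.8 CPM, with an interval of -0.22 to 0.31. GGH (ENSG00000137563, chr8:63014881-63039407, minus strand) was at 32.7, 25.8 and 33.7 CPM with vehicle and 35.9, 33.7 and 38.4 CPM with Act D in HCT 116p53-/-, which did not overlap before rounding but missed the threshold (log2 fold change 0.23, SE 0.11, adjusted p = 0.156). In the other line it was at 26.2 to 30.0 and 26.0 to 27.6 CPM. The ratio of GGH to FPGS per length averaged between 1.32 and 1.71 in the 4 groups, whose libraries overlapped.

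No gene of the 8 differed between the lines in its response to Act D by the edgeR interaction test, where 3.3% of all genes had a higher and 3.23% a lower log2 response in the libraries labelled RPL3 KO. The smallest p-values among the 8 were those of SHMT2 (difference -0.37, SE 0.12, adjusted p = 0.0773) and MTHFD2 (-0.33, SE 0.12, adjusted p = 0.127). SHMT2 passed with DESeq2 (adjusted p = 0.0275) and also in edgeR without replicate 3 of the vehicle libraries labelled RPL3 KO (-0.44, adjusted p = 0.0499).

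The lines themselves differed in most of these genes. With vehicle, the libraries labelled RPL3 KO had 2 of the 8 at a higher and 5 at a lower level than HCT 116p53-/-, where 35.1% of all genes were higher and 36.2% lower (5501 and 5684 genes, 4202 and 6974 with library size alone, which moved the median of all genes to -0.26). Most measured genes differed between the lines, these among them. The median of the 8 was -0.48, against -0.02 for all genes. SHMT2 was the farthest on the higher side, at 536, 540 and 474 CPM against 133, 143 and 124 CPM, a 3.87-fold difference (log2 1.95, SE 0.09, adjusted p = 1.43e-12). MTHFD1 followed at 149, 129 and 118 CPM against 65.9, 67.4 and 76.3 CPM (log2 0.92, SE 0.10, adjusted p = 1.47e-07). Neither gene had overlapping libraries.

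On the lower side TYMS was at 48.8, 42.2 and 40.1 CPM against 75.4, 82.1 and 125 CPM, a 2.16-fold difference (log2 -1.11, SE 0.15, adjusted p = 3.66e-06). MTHFD1L was 1.95-fold lower (log2 -0.96, SE 0.09), MTHFD2 1.44-fold (log2 -0.53, SE 0.09), SHMT1 1.42-fold (log2 -0.50, SE 0.09) and FPGS 1.37-fold (log2 -0.46, SE 0.13, adjusted p = 0.00485), all without overlap. GGH overlapped between the lines (log2 -0.11, SE 0.11, adjusted p = 0.36) and passed with library size alone as the scale (-0.36, adjusted p = 0.0102). The other 7 kept their side of the threshold in all 14 alternatives.

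With Act D, the libraries labelled RPL3 KO had 2 of the 8 at a higher and 6 at a lower level, where 35.1% of all genes were higher and 35.3% lower (5503 and 5540 genes, 4244 and 6825 with library size alone). The median of the 8 was -0.42, against -0.02 for all genes. SHMT2 stood at 484, 434 and 478 CPM against 168, 150 and 149 CPM (log2 1.58, SE 0.09) and MTHFD1 at 165, 148 and 165 CPM against 63.8, 69.2 and 74.6 CPM (log2 1.21, SE 0.10). GGH, which overlapped with vehicle, did not overlap with Act D, at 26.0, 27.6 and 26.7 CPM against 35.9, 33.7 and 38.4 CPM (log2 -0.43, SE 0.11, adjusted p = 0.0022). The other falls were TYMS (-1.01), MTHFD1L (-0.87), MTHFD2 (-0.85), FPGS (-0.41) and SHMT1 (-0.27), with adjusted p from 1.15e-07 for MTHFD2 to 0.0125 for SHMT1. All 8 kept their side of the threshold in the 14 alternatives.

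Levels of different genes can be compared once divided by effective transcript length, in CPM per kilobase, with 1 length per gene averaged over the 12 libraries. In HCT 116p53-/- with vehicle the order was MTHFD2 (164 ± 15.9, SD, n = 3), TYMS (84.8), SHMT2 (71.8), MTHFD1L (39.8), GGH (29.5), MTHFD1 (28.1), FPGS (22.5), SHMT1 (18.9) and SLC19A1 (17.0). Neighbours whose libraries overlapped were TYMS and SHMT2, GGH and MTHFD1, FPGS and SHMT1, and SHMT1 and SLC19A1. In the libraries labelled RPL3 KO with vehicle SHMT2 came first (278 ± 20.1), before MTHFD2 (114), MTHFD1 (53.1), TYMS (39.4), GGH (27.3), MTHFD1L (20.4), FPGS (16.5), SHMT1 (13.3) and SLC19A1 (4.79). There the overlapping neighbours were MTHFD1L and FPGS, and FPGS and SHMT1. With Act D SLC19A1 was the lowest of the 9 in both lines, at 3.02 and 3.01 CPM per kilobase of that fixed length, which leaves out the shorter mean transcript length it had with Act D in HCT 116p53-/-. A fixed length also leaves out that MTHFD1L had shorter mean transcripts in the libraries labelled RPL3 KO than in HCT 116p53-/-.

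Set as ratios within each library, the mitochondrial and cytosolic enzymes of a step parted between the lines. SHMT2 over SHMT1 was 3.97, 4.30 and 3.24 in HCT 116p53-/- with vehicle and 23.0, 21.0 and 18.9 in the libraries labelled RPL3 KO. With Act D it was 4.54, 4.2 and 4.02 in the first and 15.4, 14.5 and 16.2 in the second, where it lay below all vehicle libraries. MTHFD1L over MTHFD1 went the other way between the lines, at 1.35, 1.45 and 1.45 against 0.355, 0.402 and 0.405 with vehicle. With Act D this ratio was 0.945 to 1.11 and 0.220 to 0.251, below the vehicle libraries of the same line in both. MTHFD2 over MTHFD1 averaged 5.88 ± 0.976 with vehicle and 5.73 ± 0.469 with Act D in HCT 116p53-/-, and 2.17 ± 0.322 and 1.38 ± 0.171 in the other line. All these ratios use the 1 fixed length per gene. The mean transcript length of MTHFD1L, however, was shorter in the libraries labelled RPL3 KO. With vehicle it was 2490 to 2791 bases in HCT 116p53-/- and 1836 to 2121 bases in the other line. With Act D it was 2237 to 2549 and 1390 to 1747 bases. How far this enters the ratios was not tested, nor were the ratios themselves.

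**Figure D5:**
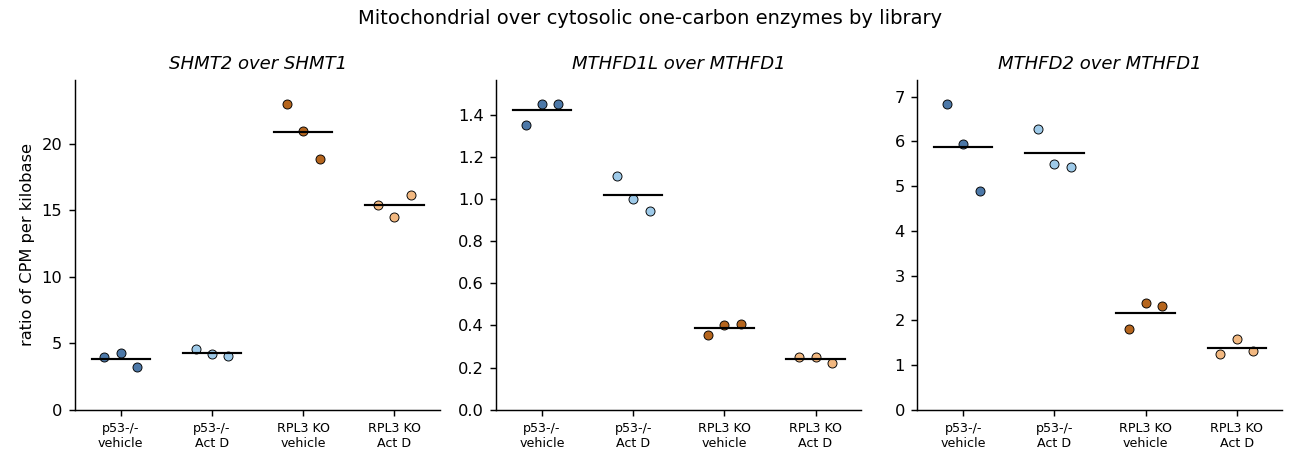
Ratio of CPM per kilobase of a mitochondrial enzyme to its cytosolic counterpart in each of the 12 libraries (points) with group means (bars), axes from 0. Each gene has 1 fixed length over the libraries. SHMT2 over SHMT1 averages 3.84 and 4.25 in HCT 116p53-/- and 20.9 and 15.4 in the libraries labelled RPL3 KO, while MTHFD1L over MTHFD1 averages 1.42 and 1.02 against 0.387 and 0.240.

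Around these 9 genes, 48 other genes of folate transport, folate conversion and the pathways that supply or use one-carbon units were listed, of which 43 passed the filter. With Act D in HCT 116p53-/- 8 of them were lower and none higher by the edgeR test, beside 11.1% and 7.59% of all genes, with a median log2 fold change of -0.05 against 0.02 for all genes. Of these 8, 5 were among the 9 measured genes of folate transport. SLC46A1, the proton-coupled folate transporter, was at 31.6, 28.4 and 26.7 CPM with vehicle and 21.7, 18.7 and 21.8 CPM with Act D (log2 fold change -0.48, SE 0.13, adjusted p = 0.0172). SLC25A32, which carries folate into the mitochondrion, was at 96.6 to 101 and 75.7 to 86.4 CPM (-0.32, SE 0.10, adjusted p = 0.0311). The exporters ABCC4 (-0.65), ABCC1 (-0.63) and ABCC2 (-0.34), named after their values were seen, also fell. Further falls, likewise named afterwards, included those of MTR and MAT2A of the methionine cycle, both at -0.45. None of the genes of serine synthesis, glycine cleavage, purine synthesis or thymidylate supply passed.

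Of the 43, 6 were lower and none higher with Act D in the libraries labelled RPL3 KO, beside 8.4% and 3.51% of all genes, with a median of -0.02 against 0.03 for all genes. SLC25A32 went from 115, 121 and 115 CPM to 69.2, 95.2 and 81.6 CPM (log2 fold change -0.51, SE 0.10, adjusted p = 0.00204). PSAT1, an aminotransferase of serine synthesis, went from 186, 211 and 194 CPM to 154, 159 and 155 CPM (-0.34, SE 0.08, adjusted p = 0.00861). The others, named after their values were seen, were PSPH (-0.79), the last enzyme of serine synthesis, ABCC1 (-0.47), RRM2 (-0.31) and PPAT (-0.27). SLC46A1 (-0.18, adjusted p = 0.444), MTHFD2L (0.24, adjusted p = 0.345), PHGDH (-0.13, adjusted p = 0.476) and ALDH1L2 (0.36, adjusted p = 0.149) did not pass.

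Between the lines with vehicle, 13 of the 43 had a higher and 18 a lower level in the libraries labelled RPL3 KO, near the 35.1% and 36.2% of all genes, with a median of -0.18. The formyltetrahydrofolate dehydrogenases, which burn one-carbon units to carbon dioxide, were near 0 in HCT 116p53-/-, where ALDH1L1 was at 0.0648 to 0.121 CPM and ALDH1L2 at 0.344 to 0.389 CPM, and reached 19.0 to 19.3 and 12.3 to 15.5 CPM in the other line. PHGDH and PSAT1, the first steps of serine synthesis, were higher at 91.4 to 123 against 44 to 48.9 CPM (log2 1.2, SE 0.11) and 186 to 211 against 90.8 to 100 CPM (1.04, SE 0.08), while PSPH was lower (-1.01). GLDC and GCSH of the glycine cleavage system were lower, at 0.270 to 0.643 against 4.89 to 5.83 CPM and 24.0 to 25.7 against 69.7 to 77.9 CPM. In purine synthesis PRPS1 was higher (1.55) and PPAT (-1.30) and ATIC (-1.17) were lower. ABCC2 was at 6.05 to 6.91 against 244 to 257 CPM and TYMP, thymidine phosphorylase, at 1.89 to 3.37 against 15.2 to 24.2 CPM. With Act D 14 were higher and 15 lower, again near the 35.1% and 35.3% of all genes, with a median of 0.01, and genes that then also differed by a log2 value of 1 or more included ABCC4 (1.18), DUT (1.03) and TK1 (-1.03).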

How the data were processed

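The authors trimmed paired-end TruSeq reads, removed reads from rRNA and other contaminants, and assigned the rest to Ensembl transcripts and genes (hg38) with RSEM 1.2.25. The Ensembl release is not given in the sources used here. The deposited values are expected counts, estimated counts that need not be whole, with transcript lengths and posterior SDs, 1 library per file. For replicate 2 of the HCT 116p53-/- vehicle group the deposited file is per transcript, with the percent of its gene that each transcript makes up, and was summed per gene here. Groups and replicate numbers came from the sample titles.

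Expected counts were rounded to whole numbers, filtered with filterByExpr (15692 genes kept), scaled by TMM and fitted with edgeR 4.0.16 (R 4.3.3), 1 coefficient per group over all 12 libraries, with the quasi-likelihood test. P-values were adjusted by Benjamini-Hochberg over all genes tested, with a threshold of 0.05. The scripts were tested on simulated data. Intervals are 95% normal intervals from the SE. Depth limits low levels most, and the lowest count among the 9 genes was 76, for SLC19A1. The posterior SD of RSEM was at most 0.13% of a count for the 9 genes. No 2 libraries of a group agreed within sampling noise. The chi-square per degree of freedom between 2 libraries of a group, over genes, ran from 7.24 to 107. In the Act D libraries labelled RPL3 KO replicate 1 stood apart, at 107 and 62.5 against replicates 2 and 3. Between replicates 2 and 3 it was 13.

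DESeq2 1.42.0, other scalings and filters, fits to 2 groups, a replicate block and leaving out each library were alternatives. Genes named are the 9, their overlapping genes, RPL3, the 5 genes most like SLC19A1, SLC46A1, SLC25A32, MTHFD2L, PHGDH, PSAT1, ALDH1L2, and listed genes past the threshold with a log2 change of at least 1. Also named are cell type markers, the genes ranked beside SLC19A1 and listed genes past the threshold in the interaction test. Some listed genes with smaller changes were named after their values were seen. The 9 genes and all lists were chosen with earlier results of these data known. Some listed genes are not reported here. G+C content was read upstream of the most counted transcript of each gene.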

Additional observations from a re-analysis of the deposited data

Results flagged for a closer look

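Among the 43 measured genes listed around the pathway, 2 responded differently to Act D in the 2 lines by the interaction test of edgeR with Benjamini-Hochberg adjustment over all genes, which called 3.3% of all genes in the higher and 3.23% in the lower direction, so that 2 of 43 is no more than the share over all genes. ABCC4, an exporter, went from 62.1, 62.8 and 59.7 CPM to 37.0, 39.0 and 41.5 CPM with Act D in HCT 116p53-/- and from 81.2, 91.6 and 92.0 CPM to 88.2, 89.3 and 88.6 CPM in the libraries labelled RPL3 KO, a difference of 0.66 on the log2 scale (SE 0.11, adjusted p = 0.00237). MTR, methionine synthase, which takes one-carbon units from folate, went from 65.7, 64.4 and 59.8 CPM to 46.1, 44.6 and 48.2 CPM in the first and from 60.9, 50.8 and 56.6 CPM to 61.5, 69.7 and 57.6 CPM in the second, a difference of 0.62 (SE 0.13, adjusted p = 0.0088).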

How the results depend on the processing

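With Act D in HCT 116p53-/- the count of 1 gene called among 8 became 2 with DESeq2 and with upper-quartile scaling, SHMT2 being added in both, and ran from 1 to 2 when 1 library was left out, with TYMS added without replicate 3 of the vehicle group. In the libraries labelled RPL3 KO the count of 4 among 9 became 5 with DESeq2 and with upper-quartile scaling, MTHFD1 being added in both, and ran from 2 (without replicate 1 of the Act D group) to 4 when 1 library was left out. The interaction count of 0 became 1 with DESeq2, and ran from 0 to 1 when 1 library was left out. The line counts of 7 and 8 were the same in each such fit. No result changed sign among those past the threshold. Deviations of libraries with the same replicate number correlated between -0.10 and 0.10, so the numbers do not pair the libraries. With the replicate block 1, 3, 7, 8 and 0 genes were called in the 5 comparisons, SHMT1 (adjusted p = 0.0855) being the gene lost. Over all genes, calls with Act D in HCT 116p53-/- fell from 2939 to 1833 and 1949 without replicates 1 and 2 of its Act D group, and the interaction calls went from 1025 to between 614 and 669 without replicate 1 or 2 of that group or replicate 1 of the Act D libraries labelled RPL3 KO. Fewer libraries entered these fits. The cause of the other changes was not tested. With 3 libraries a group, changes as large as those of MTHFD1L could be missed in genes with a larger SE. Most of the 9 genes had SEs of about 0.1 on the log2 scale, with which smaller changes could be missed.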
